A study of Rattus norvegicus with 11 samples.

Results

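Dazl, Mael, Asz1, Tex15 and Stag3 are genes of the germ line and of meiosis. They were followed here while rat embryonic stem cells were converted to hypoblast stem cells, and they are 5 of the 14506 named genes in the expression table. They were chosen by name as germ cell genes, and selected on log2 changes over the days that earlier results of the same arrays had shown, so their changes over the days are described below and not tested. Each gene had 1 probe set on all 11 arrays: 10921332 for Dazl, 10769582 for Mael, 10861157 for Asz1, 10792087 for Tex15 and 10757264 for Stag3.

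The embryonic stem cells were of the rat line DAc2, and the converted cells are named cHypoSCs. Total RNA was hybridised to the Affymetrix array Rat Gene 1.0 ST, and all values are log2 expression levels made with RMA by the authors. All 11 samples were DAc2 cells, and all but those of day 0 had been moved to a rat multipotent adult progenitor cell medium containing the growth factors PDGF and EGF, the cytokine LIF, and fetal bovine serum at 2%. The feeder culture, which started on mouse embryonic fibroblasts with CHIR99021 (3 µM) plus PD0325901 at 0.5 µM, had 1 array on each of days 0, 7, 17 and 32. The feeder-free culture, which started on laminin with CHIR99021 (3 µM), PD0325901 at 2 µM, and human BMP4 at 5 ng/mL, had 1 array on day 0 and 2 on each of days 7, 17 and 32. CHIR99021 inhibits GSK3 and PD0325901 inhibits MEK. The cultures thus differed in feeder cells, MEK inhibitor dose and BMP4 at once, and these cannot be told apart. Whether the paired feeder-free arrays, called biological replicates, came from separate cultures is not stated, so p-values may measure technical spread only. Whether feeder cells were still present after day 0 is not stated either. One cell line was used, and in bulk RNA a smaller share of cells expressing a gene and less RNA per cell cannot be told apart.

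The germ line protects its genome and prepares for meiosis with proteins that most body cells never make. DAZL binds messenger RNAs in germ cells and regulates their translation. MAEL and ASZ1 act in the germ granules, where PIWI-interacting RNAs (piRNAs) that silence transposons are made and used. TEX15 is needed for the repair of meiotic DNA breaks and for transposon silencing in mouse spermatogenesis, and STAG3 is a subunit of the cohesin that holds chromatids together in meiosis. In mouse, many genes of this kind have promoters rich in CpG and are kept off in body cells by DNA methylation and by a Polycomb complex that contains MGA, MAX, E2F6, PCGF6 and L3MBTL2. Naive mouse embryonic stem cells transcribe a number of them.

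RefSeq windows upstream of the start were held for 4 of the 5 genes in the table of the rat build GRCr8. The 250 bases before the start are given 5′ to 3′ on the gene's strand, with each CpG in capitals, because CpG content is a feature of such promoters that the expression values did not select.
Dazl: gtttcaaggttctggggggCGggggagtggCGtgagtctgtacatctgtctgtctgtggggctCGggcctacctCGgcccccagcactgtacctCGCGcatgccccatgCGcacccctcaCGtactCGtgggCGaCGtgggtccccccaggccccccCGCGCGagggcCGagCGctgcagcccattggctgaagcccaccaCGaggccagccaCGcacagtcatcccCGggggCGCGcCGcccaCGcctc
Mael: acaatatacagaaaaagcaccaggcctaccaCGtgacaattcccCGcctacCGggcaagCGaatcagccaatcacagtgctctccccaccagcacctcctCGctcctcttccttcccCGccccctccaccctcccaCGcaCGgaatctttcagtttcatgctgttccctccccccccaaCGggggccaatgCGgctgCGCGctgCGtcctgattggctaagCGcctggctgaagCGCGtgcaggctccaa
Asz1: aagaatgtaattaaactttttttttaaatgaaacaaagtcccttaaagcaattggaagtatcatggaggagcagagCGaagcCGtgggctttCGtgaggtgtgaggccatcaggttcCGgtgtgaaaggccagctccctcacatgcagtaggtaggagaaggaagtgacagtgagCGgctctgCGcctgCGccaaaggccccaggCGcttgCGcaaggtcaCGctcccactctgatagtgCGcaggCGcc
Stag3: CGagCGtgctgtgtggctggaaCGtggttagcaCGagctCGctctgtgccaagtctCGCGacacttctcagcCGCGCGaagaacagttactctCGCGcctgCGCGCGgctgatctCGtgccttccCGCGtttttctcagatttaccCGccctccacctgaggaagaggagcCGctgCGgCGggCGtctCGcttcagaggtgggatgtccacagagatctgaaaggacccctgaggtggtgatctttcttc
The Dazl window (chr9:18193113-18193362, plus strand) held 23 CpG and 71.6% G or C. That of Stag3 (chr12:22398158-22398407, plus strand) held 24 CpG and 60.8% G or C, and the RefSeq gene record of Stag3 begins inside it, upstream of the start used. Mael (chr13:81029624-81029873, minus strand) had 16 CpG and 61.6% G or C, and Asz1 (chr4:47421977-47422226, minus strand) had 12 and 53.2%. All 4 were above the median of 5 CpG over 33469 promoters of the same length, and all but Asz1 were above the upper quartile of 15. The share of these promoters with fewer CpG was 89.1% for Stag3, 87.7% for Dazl, 76.2% for Mael and 68.5% for Asz1. The promoters were not limited to the measured genes. The E-box CACGTG, a sequence that MGA and MAX can bind, was searched on both strands and found at 221 to 216 bases before the start of Mael alone among the 4. It stood in 5.59% of all promoters. The sequence GCGGGAA, of the E2F type, was likewise found at 129 to 123 bases before the start of Stag3 alone, on the minus strand, and in 3.36% of all promoters. These matches describe letters and not binding, and no methylation was measured.

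All 5 genes were above background in the stem cells of both cultures at day 0 and were lower on every array of days 17 and 32. As a measure of background, the 1239 genes for olfactory and vomeronasal receptors had a median of 6.36 and a 95th percentile of 8.06. At day 0 none of the 5 genes lay below 8.06 in either culture. At day 32, 2 of 5 did in the feeder culture and 4 of 5 in the feeder-free culture. RMA compresses low values, so differences near this level are understated.

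The genes of each role took different courses. Dazl, the RNA-binding regulator, stood in the feeder culture at 9.79, 8.43, 6.59 and 6.69 on days 0, 7, 17 and 32. In the feeder-free culture it stood at 9.79 on day 0, 8.11 and 8.55 on day 7, 6.73 and 6.61 on day 17, and 6.67 and 6.36 on day 32. The feeder value lay between the feeder-free replicates at day 7 and within their spread of the nearer one at days 17 and 32, and the decline ran in 2 steps of similar size in both: by day 7 Dazl had completed 44.1% of its whole decline to day 32 in the feeder culture and 44.6% in the feeder-free culture.

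Mael, of the piRNA pathway, stood in the feeder culture at 10.35, 9.53, 7.13 and 7.46 on days 0, 7, 17 and 32. In the feeder-free culture its values were 10.23 on day 0, 7.43 and 7.58 on day 7, 7.39 and 7.27 on day 17, and 7.20 and 7.07 on day 32. Day 7 minus day 0 was thus -0.82 in the feeder culture, while both feeder-free arrays of day 7 were already close to their late level. Of the decline to day 32, 28.5% was complete by day 7 in the feeder culture and 88.0% in the feeder-free culture.

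Asz1, the germ granule protein on mitochondria, had the smallest decline of the 5. Its feeder values were 9.78, 8.25, 7.55 and 8.16 on days 0, 7, 17 and 32. Its feeder-free values were 9.56 on day 0, 8.11 and 7.84 on day 7, 7.83 and 7.83 on day 17, and 7.83 and 8.09 on day 32. Of the net change to day 32, 94.7% was reached by day 7 in the feeder culture and 99.3% in the feeder-free culture. In the feeder culture the gene was not level after that. Day 17 minus day 7 was -0.70 and day 32 minus day 17 was 0.61. The values after day 7 moved around the background bound.

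Tex15, of meiotic break repair, had the largest drop of the 5 genes between days 0 and 32. It stood at 13.23, 13.35, 8.64 and 8.55 in the feeder culture on days 0, 7, 17 and 32. In the feeder-free culture it stood at 13.60 on day 0, 11.68 and 11.80 on day 7, 7.63 and 7.88 on day 17, and 7.89 and 7.77 on day 32. No decline was seen by day 7 in the feeder culture, where day 7 minus day 0 was 0.12, whereas it was -1.86 in the feeder-free culture. Between days 7 and 17 the difference was -4.72 in the feeder culture and -3.99 in the feeder-free culture.

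Stag3, the cohesin subunit, stood at 12.28, 11.12, 8.29 and 8.09 in the feeder culture on days 0, 7, 17 and 32. Its feeder-free values were 12.79 on day 0, 8.57 and 8.78 on day 7, 7.996 and 8.25 on day 17, and 8.10 and 8.04 on day 32. The first week carried -1.16 of the change in the feeder culture and -4.12 in the feeder-free culture, which was the largest first-week drop of the 5 genes. From day 17 on the gene lay at the background bound in both cultures.

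**Figure D1:**
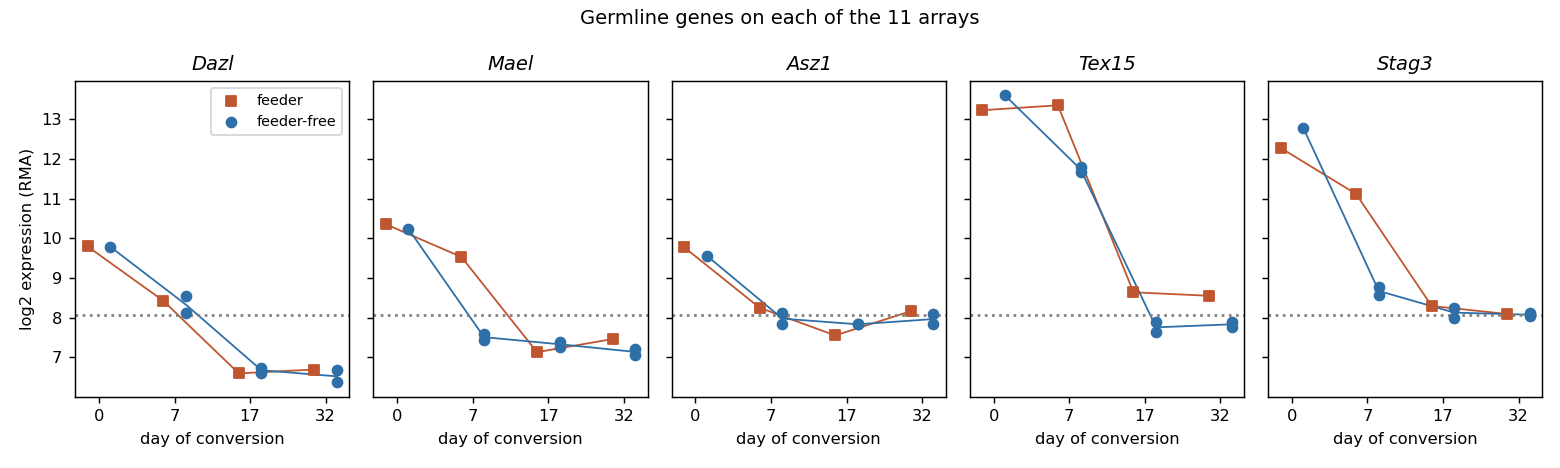
Log2 expression of the 5 genes on each array (y axis) by day of conversion (x axis, days spaced equally), with squares for the feeder culture, circles for the feeder-free culture and lines through the group means. The dotted line is the 95th percentile of receptor genes, 8.06; the feeder and feeder-free points of day 7 lie apart for Mael, Tex15 and Stag3 and together for Dazl and Asz1.

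From day 0 to day 32 the difference in the feeder culture was -3.10 for Dazl, -2.90 for Mael, -1.61 for Asz1, -4.68 for Tex15 and -4.19 for Stag3. In the feeder-free culture it was -3.27, -3.10, -1.60, -5.77 and -4.72 for the same genes in the same order. Between days 17 and 32 the 5 genes moved by -0.20 (Stag3) to 0.61 (Asz1) in the feeder culture. In the feeder-free culture they moved by -0.19 (Mael) to 0.13 (Asz1). Spread between the feeder-free replicates was small beside the declines, with an SD of at most 0.31 (n = 2), that of Dazl at day 7. In the comparison of day 32 with day 0, 31.0% of all 14506 genes passed limma's test at an adjusted p of 0.05, and 13.7% passed as lower.

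The comparison between the cultures on a given day asks whether the genes differed with the starting culture, and it was not itself used to choose them. It does share its arrays with the changes over the days on which they were chosen. The difference between the cultures in a change contains those changes. The p-values of the 5 genes between the cultures are thus not independent of their selection. At day 7, Mael, Tex15 and Stag3 were higher in the feeder culture, and Dazl and Asz1 did not pass the test. Thus 3 of 5 genes were called, all higher, where 41.2% of all genes were called and 20.4% as higher. The 3 also differed between the cultures in their change from day 0 to day 7.

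Mael had 9.53 in the feeder culture and 7.51 ± 0.10 in the feeder-free culture at day 7 (SD, n = 2 feeder-free arrays), a difference of 2.02 ± 0.13 (SE; limma adjusted p = 3.48e-08). Stag3 had 11.12 in the feeder culture and 8.67 ± 0.15 in the feeder-free culture, a difference of 2.45 ± 0.14 (limma adjusted p = 1.38e-08). Tex15 had 13.35 in the feeder culture and 11.74 ± 0.08 in the feeder-free culture, a difference of 1.61 ± 0.14 (limma adjusted p = 5.41e-07). Each feeder value lay above both feeder-free replicates. The feeder culture had 1 array, so its own spread was not measured, and the test takes it to vary like the feeder-free pairs.

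Dazl had 8.43 in the feeder culture at day 7, between the feeder-free replicates at 8.11 and 8.55. The difference was 0.10 ± 0.18, with a 95% interval from -0.28 to 0.48 (limma adjusted p = 0.715). Asz1 had 8.25 in the feeder culture, just above the feeder-free values of 8.11 and 7.84, and the difference of 0.27 ± 0.15 had an interval from -0.04 to 0.59 (limma adjusted p = 0.163). Both intervals end well below the estimates for Mael, Tex15 and Stag3. Asz1 was near the background bound on these arrays, so a difference there would be understated.

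At day 0 only Stag3 of the 5 genes passed, at 12.28 in the feeder culture and 12.79 in the feeder-free culture, a difference of -0.51 ± 0.17 (limma adjusted p = 0.0311), where 31.5% of all genes were called and 16.9% as lower. The call was lost when all probe sets were tested and after a further quantile normalization. Each culture had 1 array at day 0, so the test took its spread wholly from the feeder-free pairs of later days. Tex15 was at -0.37 ± 0.16 (limma adjusted p = 0.0951), Mael at 0.12 ± 0.15 (0.608), Asz1 at 0.21 ± 0.17 (0.392) and Dazl at 0.01 ± 0.20 (0.986).

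The change from day 0 to day 7 therefore differed between the cultures by 2.95 ± 0.22 for Stag3 (limma adjusted p = 3.99e-07), 1.99 ± 0.21 for Tex15 (9.94e-06) and 1.90 ± 0.20 for Mael (8.77e-06). A positive value means a smaller decline in the feeder culture. The change to day 7 rests on 1 day 0 array in each culture. For Dazl the difference was 0.09 ± 0.27 with an interval from -0.49 to 0.67 (limma adjusted p = 0.879), and for Asz1 it was 0.06 ± 0.23 with an interval from -0.42 to 0.55 (0.907). Of all genes, 22.0% were called here and 10.9% as higher.

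**Figure D2:**
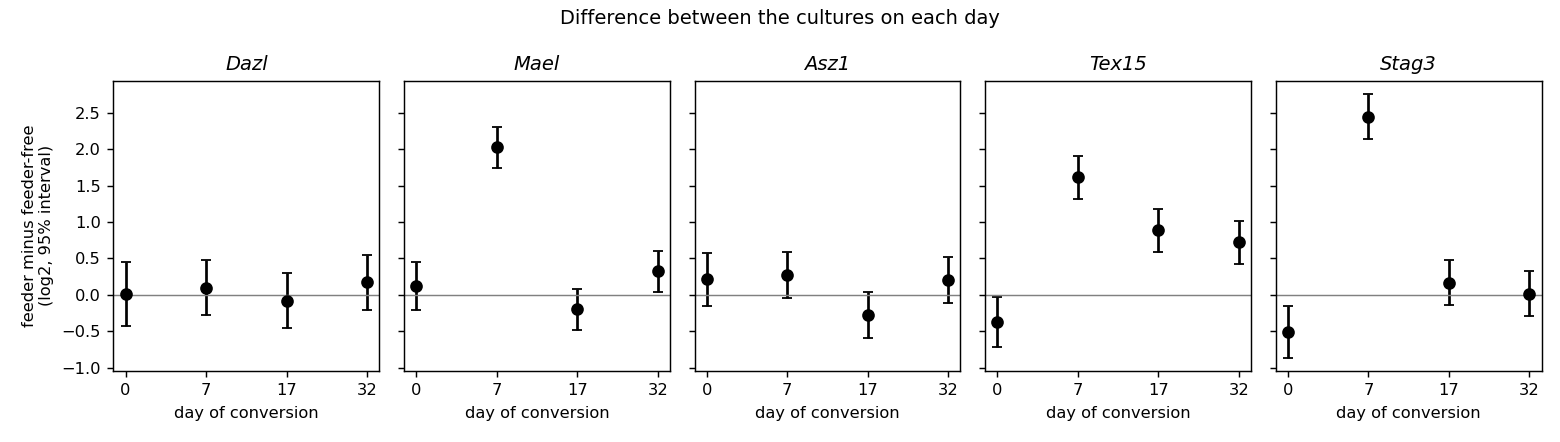
Difference in log2 expression between the cultures, feeder minus feeder-free (y axis), for the 5 genes on each day (x axis, days spaced equally), with the 95% interval of the fit. The day 7 points stand at 2.02 for Mael, 1.61 for Tex15 and 2.45 for Stag3, while the intervals of Dazl and Asz1 include 0 on all 4 days.

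In the next interval the difference ran the other way. From day 7 to day 17 the change was more negative in the feeder culture by -2.28 ± 0.20 for Stag3 (limma adjusted p = 2.67e-06), by -2.22 ± 0.18 for Mael (1.38e-06) and by -0.73 ± 0.20 for Tex15 (0.0168), where 19.7% of all genes were called and 8.97% as lower. Dazl, at -0.18 ± 0.25 (limma adjusted p = 0.725), and Asz1, at -0.55 ± 0.21 (0.0841), did not pass. This comparison shares the day 7 arrays with the one before it. The call of Tex15 was lost when all probe sets were tested (adjusted p = 0.0681) and without replicate 1 of feeder-free day 7 (0.0561), and Asz1 passed without that replicate (0.0445) and without the dimmest 25% of genes (0.0295).

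By days 17 and 32 only Tex15 remained called, higher in the feeder culture. At day 17 it had 8.64 in the feeder culture and 7.75 ± 0.18 in the feeder-free culture (SD, n = 2), a difference of 0.88 ± 0.14 (limma adjusted p = 0.000346), where 27.7% of all genes were called and 13.9% as higher. At day 32 it had 8.55 in the feeder culture and 7.83 ± 0.09 in the feeder-free culture, a difference of 0.72 ± 0.14 (limma adjusted p = 0.00166), where 25.9% were called and 14.3% as higher. On both days the feeder value lay above the background bound of 8.06 and the 2 feeder-free values below it. The other 4 genes differed by -0.28 to 0.17 at day 17 and by 0.02 to 0.33 at day 32. Mael, at 0.33 ± 0.13 on day 32 (limma adjusted p = 0.0867), passed without the dimmest 25% of genes (0.0466) and after quantile normalization (0.0359).

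Markers of other cells and cell states also differed between the cultures, the fibroblast markers most at day 0. Of all genes, 14.7% were called higher in the feeder culture at day 0, 20.4% at day 7, 13.9% at day 17 and 14.3% at day 32. Of 10 fibroblast markers, all 10 were higher at day 0, 8 at day 7, 2 at day 17 and 0 at day 32. Their median difference was 1.44 at day 0 and 0.68 at day 7. Their summed log2 level was 101.1, 89.4, 83.4 and 82.7 in the feeder culture on days 0, 7, 17 and 32 and 81.2 to 82.5 on the 7 feeder-free arrays. Of the 10, 2 to 4 lay below the background bound on the feeder arrays and 3 or 4 on the feeder-free arrays. Postn, a matrix protein of fibroblasts, differed by 4.99 ± 0.15 at day 0 (limma adjusted p = 1.6e-10) and by 1.71 ± 0.13 at day 7 (2.03e-07). The part of the feeder cells in the culture differences was not tested.

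At day 7, 20.4% of all genes were called higher in the feeder culture and 20.8% lower. Of 7 measured naive pluripotency genes, 6 were higher on that day and 1 was lower. Nanog, a transcription factor of the naive state, had 13.29 in the feeder culture at day 7, against 10.14 and 10.26 in the feeder-free culture, a difference of 3.09 ± 0.19 (limma adjusted p = 2.67e-08). Sox2, another such factor, had 12.73 in the feeder culture, against 10.73 and 10.90 in the feeder-free culture, a difference of 1.91 ± 0.12 (limma adjusted p = 4e-08). All 8 hypoblast markers were lower in the feeder culture on that day, among them the receptor gene Pdgfra at -3.50 ± 0.12 (limma adjusted p = 1.96e-10) and Gata4, an endoderm transcription factor, at -2.75 ± 0.12 (1.79e-09). Of 7 trophoblast markers, 5 were lower in the feeder culture at day 7 and 0 were higher. Mael, Tex15 and Stag3 thus differed between the cultures at day 7 in the same direction as 6 of the 7 naive genes. On the feeder array of day 7 Nanog was near its feeder day 0 value of 13.35. In that culture day 7 minus day 0 was -1.53 for Asz1, -1.37 for Dazl, -1.16 for Stag3, -0.82 for Mael and 0.12 for Tex15.

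A wider list of germ cell genes gave the setting. It had 77 genes in 5 lists by role, of which 51 were measured, 46 of them besides the 5. At day 0, 29 of the 46 were above the background bound in the feeder culture and 32 in the feeder-free culture; at day 32 it was 19 in the feeder culture and 18 in the feeder-free culture. From day 0 to day 7, 13 of 46 fell and 1 rose by limma's test over both cultures, where 9.27% of all genes fell and 6.74% rose. The median change was -0.32, against -0.04 for all genes. The fit behind the day changes takes 1 change for both cultures. For a gene that changed differently in them, the value is pooled and describes neither culture, and the difference widens its SE. The day counts are also sensitive to single arrays, and the shares over all genes without an array are not given here. Without the feeder-free day 0 array 1 of 46 was called, without any one of the 6 later feeder-free arrays 6 to 9 were, and without the feeder day 7 array 23 were.

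Of the 14 other genes of the piRNA pathway and germ granule, 4 fell by day 7 and 0 rose, where 9.27% of all genes fell and 6.74% rose. Tdrkh, which tethers piRNA factors to mitochondria, fell by 2.11 ± 0.21 (limma adjusted p = 0.000823). Its level was 10.32 at day 0 and 8.83 at day 7 in the feeder culture, and 10.68 at day 0 and 8.30 and 7.98 at day 7 in the feeder-free culture. Fkbp6, a chaperone partner in the same pathway, changed by -1.28 ± 0.22 (limma adjusted p = 0.0076), Tdrd1 by -1.01 ± 0.18 (0.00939) and the RNA helicase gene Ddx4 by -1.08 ± 0.32 (0.0499). Without the feeder-free day 0 array the call of Tdrkh held and the other 3 were lost, as were those of the genes named next.

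Of 6 other germ cell RNA-binding genes, 2 fell and 1 rose by day 7. The shares over all genes, for this and the next lists, were 9.27% lower and 6.74% higher. Boll, a relative of Dazl, changed by -2.07 ± 0.56 (limma adjusted p = 0.0381) and Cpeb1, a regulator of polyadenylation, by -0.69 ± 0.20 (0.0469). Within each culture, the change of Boll was -0.58 with feeders and -2.95 in the feeder-free culture. Dnd1, which protects germ cell messages, rose by 0.38 ± 0.11 (limma adjusted p = 0.0472). Of 8 other cohesin and synaptonemal complex genes, 2 fell, Hormad2 at -1.57 ± 0.33 (limma adjusted p = 0.0167) and Sycp1 at -0.86 ± 0.17 (0.014), both proteins of meiotic chromosome axes and their pairing. Sycp1 lay below the background bound of 8.06 already at day 0, at 6.69 in the feeder culture and 7.46 in the feeder-free culture. Cpeb1 did so at day 0 in the feeder-free culture (7.62). Changes below this bound are weak evidence of a fall in expression. Of 14 other recombination genes 3 fell, among them Mei1 at -0.83 ± 0.21 (limma adjusted p = 0.0294), and of 4 germ cell regulators 2 fell, Tex101 at -1.12 ± 0.25 (0.0197) and the transcription factor gene Sohlh2 at -0.95 ± 0.25 (0.0364).

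From day 7 to day 17, 5 of 46 fell and 0 rose, with a median of -0.20 against 0.09 for all genes, of which 3.65% fell and 9.10% rose. Ddx4 changed by -1.49 ± 0.28 (limma adjusted p = 0.0152), Sohlh2 by -1.48 ± 0.22 (0.00788), Sycp3, of the synaptonemal complex, by -1.44 ± 0.39 (0.0447), Fkbp6 by -1.19 ± 0.19 (0.00951) and Dnd1 by -0.36 ± 0.10 (0.0415). The count was 10 without either day 0 array, and 2 or 3 without feeder day 17, replicate 1 of feeder-free day 7, or any feeder-free array of days 17 and 32. Ddx4, Sycp3 and Dnd1 lost their calls without any one of the 3 arrays of day 17. In the feeder-free culture Sycp3 was already below the background bound at day 7, with a mean of 7.31. From day 17 to day 32 limma called 0 of 46 and 0 of all genes (0%), and 1 of 46 had an unadjusted p under 0.05. This does not mean that no gene moved. Sohlh2 rose again from day 17 to day 32, by 1.37 in the feeder-free culture and 0.47 in the feeder culture.

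From day 0 to day 32, 21 of 46 fell and 2 rose, where 13.7% of all genes fell and 17.4% rose, and the median was -0.36 against 0.05 for all genes. By role, 6 of 14 piRNA and germ granule genes fell, 2 of 6 RNA-binding genes, 5 of 8 cohesin and synaptonemal genes, 5 of 14 recombination genes and 3 of 4 regulators. Smc1b, the meiotic partner of Stag3 in cohesin, changed by -3.72 ± 0.65 (limma adjusted p = 0.00291), Boll by -3.36 ± 0.56 (0.00243), Ddx4 by -2.69 ± 0.32 (0.000584), Hormad1 by -2.64 ± 0.47 (0.0034) and Tdrkh by -2.56 ± 0.21 (0.000166). Nanos2, an RNA-binding regulator of male germ cells, rose by 0.43 ± 0.11 (limma adjusted p = 0.018). Without the feeder-free day 0 array 13 of 46 were called, and Nanos2 was not (adjusted p = 0.141), nor was it without the feeder day 32 array.

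**Figure D3:**
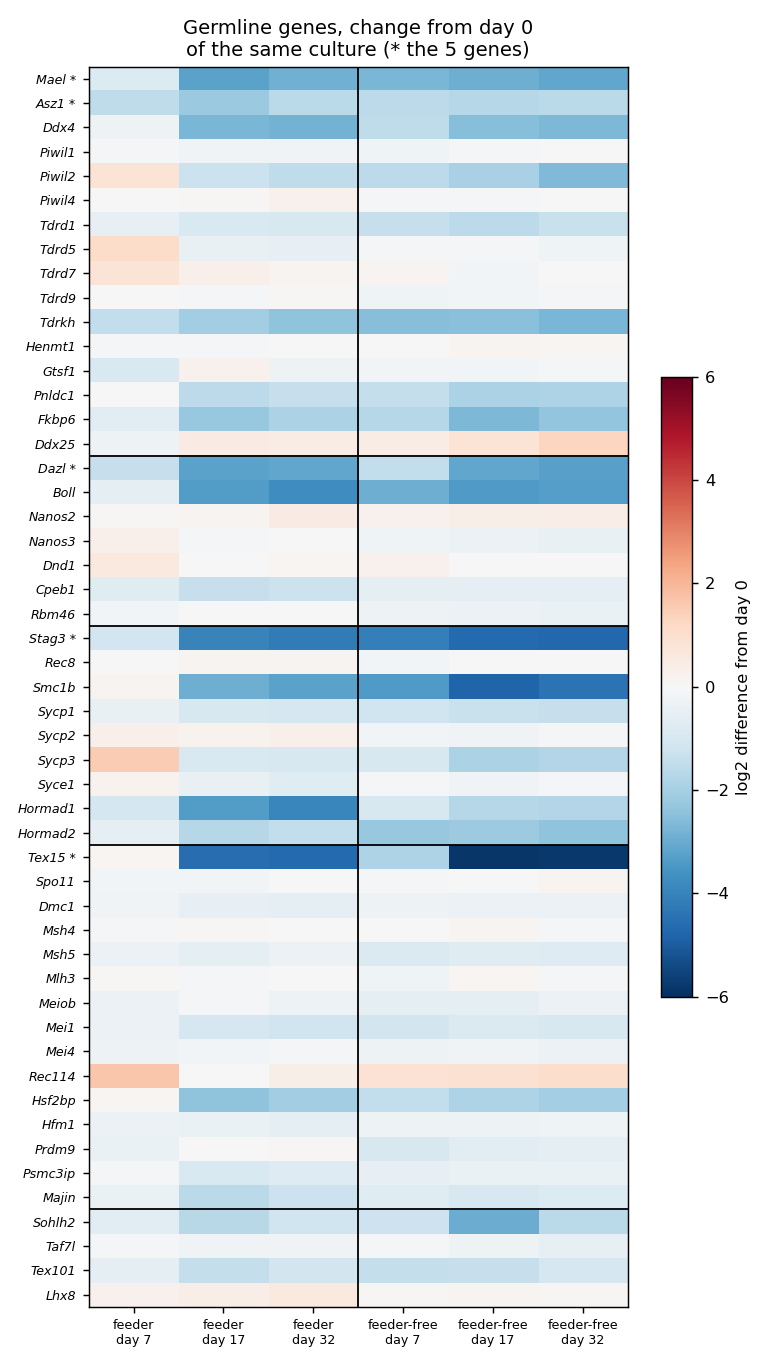
Log2 difference from the day 0 array of the same culture (colour, blue lower and red higher) for the 5 genes, marked *, and the 46 other germline genes, in columns by culture and day and in blocks by role. In the day 7 columns Mael (-0.82 in the feeder culture and -2.73 in the feeder-free culture), Stag3 (-1.16 and -4.12) and Boll (-0.58 and -2.95) are a paler blue in the feeder culture, Smc1b is faintly red there (0.16) and deep blue in the feeder-free culture (-3.41), and Dazl and Asz1 are alike in both.

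At day 7 the other germline genes also differed between the cultures. Of 46, 22 were higher in the feeder culture and 4 lower, where 20.4% of all genes were higher and 20.8% lower, with a median difference of 0.31 against -0.03 for all genes. The higher ones were 7 of 14 piRNA and germ granule genes, 4 of 6 RNA-binding genes, 5 of 8 cohesin and synaptonemal genes, 4 of 14 recombination genes and 2 of 4 regulators. At day 0, 7 were higher and 12 lower with a median of -0.07, where 14.7% of all genes were higher and 16.9% lower with a median of -0.06.

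Smc1b had 10.44 in the feeder culture at day 7, against 8.34 and 8.03 in the feeder-free culture, a difference of 2.25 ± 0.24 (limma adjusted p = 3.53e-06). At day 0 it was lower in the feeder culture, at 10.28 against 11.59 (-1.31 ± 0.27, limma adjusted p = 0.00222). Boll had 9.79 in the feeder culture at day 7, against 7.57 and 7.56 in the feeder-free culture, a difference of 2.22 ± 0.12 (limma adjusted p = 8.13e-09), and the pair had started at 10.37 in the feeder culture and 10.52 in the feeder-free culture. Against day 0 of the same culture, day 7 stood at 0.16 for Smc1b and -0.58 for Boll in the feeder culture, and at -3.41 for Smc1b and -2.95 for Boll in the feeder-free culture. Ddx4 had 10.27 in the feeder culture, against 8.56 and 8.84 in the feeder-free culture (1.57 ± 0.14, limma adjusted p = 1.09e-06), and Hsf2bp, a recombination gene, had 10.30 in the feeder culture, against 8.49 and 8.65 in the feeder-free culture (1.74 ± 0.14, 3.76e-07).

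The change to day 7 was higher in the feeder culture for 19 of 46 and lower for 2, with a median difference of 0.37 against 0.03 for all genes, of which 10.9% were higher and 11.2% lower. It differed by 3.57 ± 0.36 for Smc1b (limma adjusted p = 6.38e-06), 2.47 ± 0.19 for Sycp3 (5.79e-07), 2.42 ± 0.20 for the PIWI gene Piwil2 (1.23e-06) and 2.37 ± 0.19 for Boll (7.06e-07). From day 7 to day 17 the change was more negative in the feeder culture for 17 of 46 and less negative for 2, where 8.97% of all genes were called lower and 10.7% higher. Boll differed there by -2.33 ± 0.17 (limma adjusted p = 5.32e-07) and Hsf2bp by -2.13 ± 0.20 (4.94e-06).

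**Figure D4:**
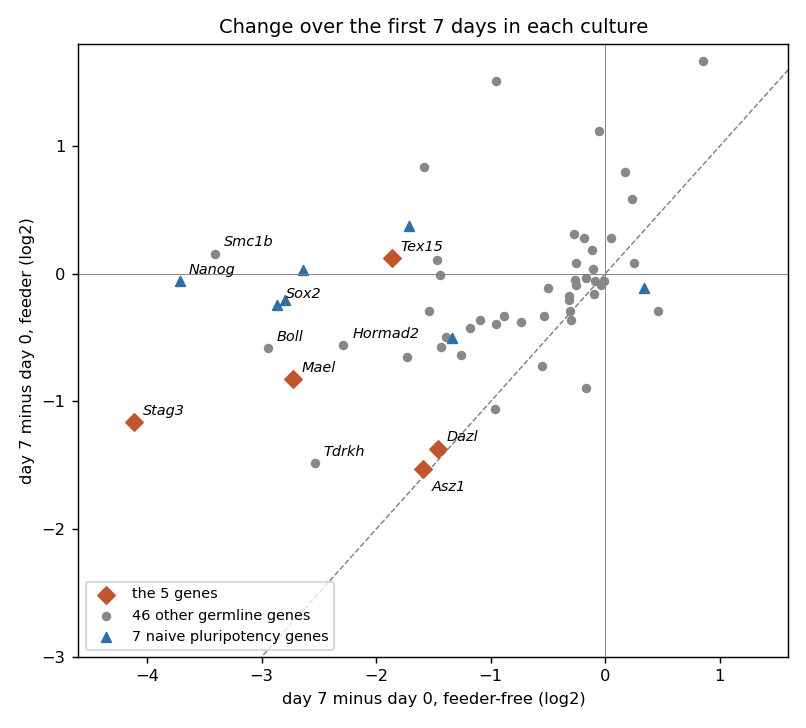
Log2 difference of day 7 minus day 0 in the feeder culture (y axis) against the feeder-free culture (x axis) for the 5 genes (diamonds), the 46 other germline genes (circles) and 7 naive pluripotency genes (triangles), 1 point per gene. The dashed line marks equal change; Dazl and Asz1 lie on it, and Mael, Tex15 and Stag3 lie above it, with 37 of the 46 others.

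At day 17, 3 of the 46 others were higher in the feeder culture and 4 lower, where 13.9% of all genes were higher and 13.8% lower. At day 32, 3 were higher and 6 lower, where 14.3% of all genes were higher and 11.6% lower. Sohlh2 was higher in the feeder culture on all 4 days, as with 12.27 in the feeder culture at day 7, against 10.25 and 10.40 in the feeder-free culture, and with 11.26 at day 17, against 8.76 and 8.46. Its differences were 1.32 ± 0.17 at day 0 (limma adjusted p = 4.99e-05), 1.94 ± 0.14 at day 7 (1.29e-07), 2.65 ± 0.14 at day 17 (1.22e-07) and 1.75 ± 0.14 at day 32 (3.11e-06). Fkbp6 was higher by 1.05 ± 0.15 at day 17 (limma adjusted p = 0.000224) and by 1.10 ± 0.15 at day 32 (0.000164), and Gtsf1, a piRNA pathway factor, by 1.64 ± 0.13 at day 17 (2.26e-06) and 0.95 ± 0.13 at day 32 (0.000149). With Tex15, these were the genes of the lists that stayed higher in the feeder culture on both late days. Gtsf1 lay below the background bound at day 32 in both cultures, at 7.80 in the feeder culture and a mean of 6.85 in the feeder-free culture.

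Genes that keep germline promoters silent in mouse were also listed. Of 18 listed, 13 were measured, and Mga and E2f6 were not among these. Of the 13, 4 rose and 3 fell from day 0 to day 32, where 17.4% of all genes rose and 13.7% fell. Dnmt3a, a DNA methyltransferase that sets new methylation, rose by 1.25 ± 0.11 (limma adjusted p = 0.000196), and Max, of the Polycomb complex named above, rose by 0.60 ± 0.09 (0.00137). Uhrf1, which directs maintenance methylation, fell by 1.38 ± 0.27 (limma adjusted p = 0.00457), and L3mbtl2, of the same Polycomb complex, fell by 0.85 ± 0.19 (0.0093). Without the feeder-free day 0 array Uhrf1 (adjusted p = 0.0677) and L3mbtl2 (0.127) did not pass. At day 7, Dnmt3a was lower in the feeder culture, at 11.18 against 11.79 and 11.93 in the feeder-free culture (-0.68 ± 0.13, limma adjusted p = 0.000787), and Uhrf1 was higher, at 13.32 against 12.47 and 12.60 (0.79 ± 0.12, 0.000137). The difference of Dnmt3a was present on the other days too, at -0.91 ± 0.15 on day 0 (limma adjusted p = 0.000477), -0.9998 ± 0.13 on day 17 (9.39e-05) and -0.98 ± 0.13 on day 32 (0.000118). Uhrf1 was lower in the feeder culture at day 0, at -0.53 ± 0.14 (limma adjusted p = 0.0108). Pcgf6, also of that complex, was higher on all 4 days, by 0.63 ± 0.14 at day 0 (limma adjusted p = 0.00417), 0.77 ± 0.12 at day 7 (0.000169), 0.57 ± 0.12 at day 17 (0.00361) and 0.57 ± 0.12 at day 32 (0.00385). The other days of these genes were added after their values were seen. Their part in the course of the germline genes was not tested.

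Primordial germ cells, the embryonic founders of the germ line, share many genes with naive stem cells. Of 9 measured primordial germ cell genes, 0 rose and 4 fell from day 0 to day 32, against 17.4% and 13.7% of all genes, among them Alpl, tissue-nonspecific alkaline phosphatase, at -3.54 ± 0.31 (limma adjusted p = 0.000199), and Dppa3 at -1.53 ± 0.42 (0.0237). The call of Dppa3 was lost without either day 0 array, the feeder day 32 array or replicate 2 of feeder-free day 32. Dppa3 encodes a maternal factor that is also made in naive stem cells. By the fit, 7 of the 9 changes were below 0. Kit went the other way without a call, by 1.57 in the feeder culture and 0.29 in the feeder-free culture. The summed log2 level of the 9 was 99.0, 98.6, 88.7 and 89.4 in the feeder culture on days 0, 7, 17 and 32. In the feeder-free culture it was 100.6 on day 0, 95.5 and 96.2 on day 7, 89.5 and 89.9 on day 17, and 91.0 and 91.3 on day 32.

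Across the 8 group means, which share arrays and normalization, the 5 genes followed each other with Pearson r from 0.737 (Asz1 and Tex15) to 0.990 (Mael and Stag3). Over all named genes, those most like Mael were Gemin8 (r = 0.995), Pgk1 (0.994) and Khdrbs3 (0.993). Most like Stag3 were Or1j4 (r = 0.999), an olfactory receptor gene that also stands in the background set, Tex26 (0.998) and Gnb5 (0.998). Most like Tex15 were Dynll2, Slc7a3 and Hpgd, each at r = 0.990. Most like Dazl were Sms (r = 0.983), Odad4 (0.982) and Fabp5 (0.982), and most like Asz1 were Rbm24 (0.989), Tubb3 (0.984) and Wnt3a (0.982). The neighbours of Asz1 shared its first-week course, as with Rbm24 at 11.19 on day 0 and 9.46 on day 7 in the feeder culture, and 10.92 on day 0 and 9.16 on day 7 in the feeder-free culture. These likenesses describe 8 points and carry no test.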

How the data were processed

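The values are log2 expression levels per probe set that the authors deposited as 1 table of 29214 probe sets for 11 arrays, RMA being the method that, per the submitters' processing notes, made them, with no version given. All columns have a median of 8.97. Platform annotation gave 15310 probe sets 1 symbol, 323 several and 13581 none, and the brightest probe set stood for each of 14506 genes. Day changes were fitted with day and culture terms (6 residual degrees of freedom) and culture differences with 1 mean for each of 8 groups (3 degrees), using limma 3.58.1 in R 4.3.3, Benjamini-Hochberg adjustment over all genes and a threshold of 0.05. The feeder-free pairs correlated at 0.997 or more and had 0 identical values.

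The members and lists were chosen with earlier results of these data known. Named genes were the 5 members and, per list and comparison, up to 4 called genes with the largest change, of which a part is printed. The calculation was tested on simulated data. Alternatives were other gene filters, normalizations, terms and left-out arrays. Probe-level background and detection were not used here. Figures were drawn with matplotlib 3.10.9.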

Additional observations from a re-analysis of the deposited data

Results flagged for a closer look

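These genes changed differently in the 2 cultures by limma's test of the difference itself, given as feeder minus feeder-free on the log2 scale. The feeder culture had 1 array a day, so each value rests on single feeder arrays. The change to day 7 also rests on the lone feeder-free array of day 0. For the change from day 0 to day 7, the 5 genes gave 2.95 for Stag3, 1.99 for Tex15 and 1.90 for Mael. Other germline genes gave 3.57 for Smc1b, 2.47 for Sycp3, 2.42 for Piwil2, 2.37 for Boll, 1.58 for Hsf2bp and 1.24 for Ddx4. Nanog gave 3.66 and Sox2 2.62, both naive pluripotency genes, and Uhrf1 gave 1.32. For the change from day 7 to day 17 the differences were -2.28 for Stag3, -2.22 for Mael and -0.73 for Tex15. They were -2.33 for Boll, -2.13 for Hsf2bp, -1.76 for Piwil2, -1.65 for Smc1b and -1.46 for Ddx4. Both sets of differences use the day 7 arrays. Sycp3 lay below the background bound at day 0 in the feeder culture (7.33) and at day 7 in the feeder-free culture (mean 7.31).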

How the results depend on the processing

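For the 5 genes, 467 of 484 culture values under the alternatives kept their direction and call. Many of these estimates could not move, because an array left out on another day does not enter a difference. Stag3 at day 0, for example, stayed at -0.51 with any array of another day left out. Directions turned only for small uncalled values: Dazl at day 0 (-0.0381, centred on the median of the genes), Dazl at day 17 (0.0521, after quantile normalization) and Stag3 at day 32 (-0.0449, centred). With 1 array left out in turn, the culture difference of Dazl at day 7 ran from -0.12 to 0.32, the difference between the cultures in its change to day 7 from -0.13 to 0.31, and that in its change from day 7 to day 17 from -0.39 to 0.0412, each turning without replicate 1 of feeder-free day 7. The difference between the cultures in the change of Asz1 to day 7 ran from -0.0731 to 0.19, turning without replicate 2 of that group, and the culture difference of Stag3 at day 32 from -0.0147 to 0.0491, turning without replicate 2 of feeder-free day 32.

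Of the 46 other germline genes, 14 were called either way for day 7 minus day 0, 8 without the dimmest 25% of genes, 8 with a replicate block, 29 with 8 group means, 24 in the feeder-free arrays alone and 1 to 23 with an array left out. For day 17 minus day 7 the count was 5, and 3 with all probe sets, 3 with a replicate block, 26 with 8 group means, 14 in the feeder-free arrays alone and 2 to 10 with an array left out. For day 32 minus day 17 it was 0, and 2 with 8 group means, 3 in the feeder-free arrays alone and 3 in the arrays of days 17 and 32 alone, a setting chosen after seeing the data. For day 32 minus day 0 it was 23, with 13 without the dimmest genes and 13 to 26 with an array left out. Without the dimmest genes, which removes some of the list, the culture counts were 7 at day 0 (19 with all genes), 14 at day 7 (26) and 5 at day 32 (9), and centring gave 11 at day 17 (7). With a replicate block, 1325 of all genes were called for day 7 minus day 0, against 2322 as reported. For day 17 minus day 7, 984 of all genes were, against 1850. All-gene counts of the other settings are not given here, so a change in the power of the whole test is not separated from a change in these genes. Replicate numbers did not pair the arrays, with correlations of deviations from -0.20 to 0.03, and the replicate block left all 30 culture calls of the 5 genes as they were. Of 1887 values of the other named genes, 1736 kept direction and call, 145 lost the call, 6 gained one and 0 turned. Leaving out a lone array ends the culture value of its day. Day effects of single genes near the background bound are limited by signal over background.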
